A study of Mus musculus with 12 samples.

Results

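Notch signaling was described from 10 genes of BN1-Tie2-EGFP cells, a murine hepatoblastoma (HB) cell line. They were the receptors Notch1, Notch2, Notch3 and Notch4, the ligands Jag1, Jag2, Dll1 and Dll4, and the target genes Hes1 and Hey1. The genes were chosen by name from the 45706 genes of the deposited expression table, and all 10 were among the 18909 genes whose mean expression allowed a test. RNA-seq had been performed on 12 libraries, 3 from each of 4 groups, in a study that asked how these tumor cells take on endothelial cell (EC)-like properties in hypoxia. BN1 cells were derived from an HB that was generated in mouse liver with mutant forms of β-catenin and NRF2. Their genotype is given as Cdkn2a KO in every group. The paper describes a mix of Crispr/Cas9 mutations that inactivate this locus in part, and BN1 cells still made mutant or truncated protein from it. Stable clones transfected with EGFP under the Tie2 (Tek) promoter had been pooled, so that EGFP reports activity of a promoter normally used by ECs.

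The unsorted population was kept either in normoxia (UN, 21% oxygen) or for 2 days in hypoxia (UH, 1% oxygen). EGFP+ cells that had been sorted after hypoxia were grown in normoxia for about 10 days (SN), and SH cells were such cells returned to 1% oxygen for another 2 days. The sorted groups therefore differed from the unsorted ones in selection, in earlier hypoxia and in time in culture, and these cannot be told apart. All groups come from a single cell line, and neither the labels nor the methods say whether replicates were separate cultures or separate sorts, so p-values measure only the spread between these libraries.

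Notch receptors are single-pass membrane proteins that are activated by ligands of the Jagged and Delta-like families on neighboring cells. Binding leads to cleavage of the receptor by ADAM proteases and γ-secretase, and the released intracellular domain joins the DNA-binding protein RBPJ to activate genes such as those of the Hes and Hey repressors. In the developing liver Jag1 and Notch2 are known for their roles in bile duct formation, whereas Dll4, Notch1 and Notch4 are best known in vessels and Notch3 in the mural cells around them.

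Expression was given as TPM, a measure of transcript abundance that is corrected for transcript length and scaled to the same sum in every library, so that levels of different genes can be set side by side. Sequencing depth cannot be read from TPM. Standard deviations (SD) are those of 3 libraries, whereas standard errors, intervals and limma p-values rest on a spread shared by all 12 libraries. The limma package was used to test differences of log2(TPM + 1), with all 12 libraries and 18909 genes in the same fit. Calls of higher or lower expression required a p under 0.05 after Benjamini-Hochberg adjustment together with a log2 fold change beyond 1 in that direction. The added 1 makes the fold changes of genes with low TPM smaller than the ratios of their TPM. In bulk RNA a lower level cannot be divided into fewer cells that express a gene and less RNA of it in each cell.

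The libraries of a group resembled each other (Pearson's r across genes from 0.977 to 0.991, compared with 0.903 to 0.960 between groups), and the replicate of UN cells numbered 1 had the lowest mean r with its group. In this library 7 fibroblast markers summed to 4240 TPM, against 1120 and 985 TPM in the other UN libraries, and 9 mural markers summed to 1028 TPM, against 227 and 215 TPM. It was also the lowest UN library for Notch4, Jag2, Dll1, Dll4, Hes1 and Hey1. Results of the Notch genes that change without it are given both ways, and fits of the markers without it are not given. The markers of the labelled cell type were uneven, and of 9 hepatocyte and hepatoblast markers 6 averaged at least 1 TPM in UN, 4 in UH, 2 in SN and 3 in SH cells. Alb, the main hepatocyte plasma protein, averaged from 0.212 to 2.51 TPM in the 4 groups and Hnf4a, a hepatocyte transcription factor, from 0.108 to 3.85 TPM. The hepatoblast marker Dlk1 averaged 58.7 and 79.1 TPM in UN and UH cells and 0.389 and 1.15 TPM in SN and SH cells, the apolipoprotein gene Apoe from 10.7 to 19.7 TPM, and Afp, the fetal counterpart of albumin, from 1.22 TPM in UH to 9.20 TPM in SN cells. Tek ranged from 0.0853 to 0.226 TPM over the unsorted libraries and from 2.07 to 3.29 TPM over the sorted ones. RNA of the edited Cdkn2a gene was still counted, at 66.4 to 327 TPM in the unsorted and 7.37 to 16.5 TPM in the sorted libraries, which does not check an edit that leaves the transcript in place.

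In unsorted cells hypoxia was accompanied by lower expression of 4 of the 10 genes (Jag1, Dll1, Dll4 and Hes1) and by higher expression of 0 (UH vs UN). Among all genes tested, 11.8% were called lower and 5.46% higher in this comparison. In sorted cells 2 of the 10 (Jag2 and Hey1) were higher in hypoxia and 0 were lower (SH vs SN), where 7.47% of all genes were called higher and 5% lower. In normoxia, sorted cells had 1 higher gene (Notch1) and 2 lower genes (Notch3 and Dll4) than unsorted cells (SN vs UN), compared with 3.2% and 7.57% of all genes. In hypoxia, sorted cells had 4 higher genes (Notch1, Jag1, Jag2 and Dll1) and 1 lower gene (Notch3) than unsorted cells (SH vs UH), compared with 7.65% and 5.35%. Between SH and UN cells, the end and the start of the procedure, Notch1 and Jag2 were higher and Notch3 and Dll4 lower, where 8.97% of all genes were called higher and 11.3% lower. The response to hypoxia itself was more positive in sorted than in unsorted cells for 3 genes (Notch1, Dll1 and Dll4) and more negative for 0, compared with 8.08% and 2.18% of all genes. The 10 genes had a median log2 fold change of −0.87 with hypoxia in unsorted and 0.48 in sorted cells, and that of all genes tested was −0.19 and 0.03.

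**Figure D1:**
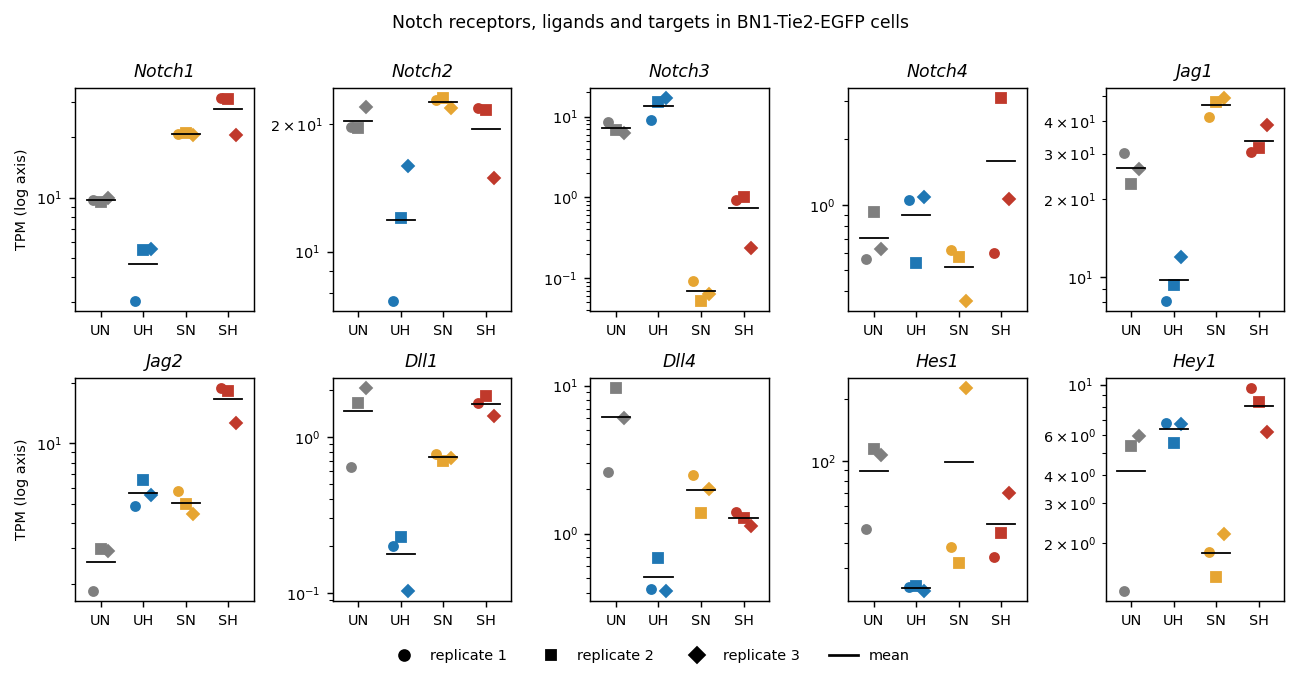
TPM of the 10 Notch genes (log axes) in UN, UH, SN and SH cells, with 1 symbol per library, shaped by replicate number, and a bar at the mean of 3 libraries. Notch3 lies between 6.33 and 16.9 TPM in the unsorted groups and at or below 1.02 TPM in the sorted groups, and Dll4 lies highest in UN cells.

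Among the receptors, Notch1 and Notch3 separated the sorted from the unsorted cells, and they did so in opposite directions. Notch1 (ENSMUSG00000026923, GRCm38 chr2:26457903-26516663, minus strand), a receptor with known roles in arterial ECs and T cells, was measured at 9.74, 9.52 and 9.94 TPM in UN cells and at 3.04, 5.47 and 5.54 TPM in UH cells. It was 20.8, 20.98 and 20.7 TPM in SN cells and 31.4, 31.2 and 20.5 TPM in SH cells. All sorted libraries were above all unsorted ones, and UH libraries were the lowest, but the SN and SH libraries overlapped. Sorted cells had more Notch1 in normoxia, a log2 fold change of 1.02 with a standard error (SE) of 0.200 (adjusted p = 0.00213, limma), and in hypoxia, where it was 2.35 (SE 0.200, adjusted p = 4.00e-06, limma). Hypoxia went with a log2 fold change of −0.95 in unsorted cells, which passed the p threshold but not the fold threshold (adjusted p = 0.00211, limma), and of 0.37 in sorted cells (adjusted p = 0.167, limma). These responses differed by 1.32 (SE 0.283, adjusted p = 0.00738, limma). The decrease in UH cells passed the fold threshold without UH replicate 2 (−1.06) or without UH replicate 3 (−1.07).

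Notch3 (ENSMUSG00000038146, chr17:32120820-32166852, minus strand), which is best known from vascular smooth muscle cells and pericytes, was nearly lost in sorted cells. Its levels were 8.54, 6.77 and 6.33 TPM in UN cells and 9.08, 15.1 and 16.9 TPM in UH cells. In SN cells they were 0.0909, 0.0517 and 0.0635 TPM, and in SH cells 0.933, 1.02 and 0.235 TPM. No 2 of the 4 groups overlapped, in the order UH, UN, SH and SN from high to low. The mean of UN cells, 7.21 ± 1.17 TPM (SD, n = 3), was 105 times that of SN cells, 0.0687 ± 0.0201 TPM (SD, n = 3), and the mean of UH cells was 18.8 times that of SH cells. On the log2(TPM + 1) scale the differences were −2.93 in normoxia (SE 0.242, adjusted p = 3.98e-06, limma) and −3.08 in hypoxia (SE 0.242, adjusted p = 2.06e-06, limma). Mean TPM in hypoxia was 1.90 times that in normoxia for unsorted and 10.6 times for sorted cells, and the log2 fold changes of 0.81 and 0.66 passed the p threshold (adjusted p = 0.0165 and 0.0469, limma) but not the fold threshold. The unsorted response reached 1.06 without UH replicate 1, and the sorted one reached 2.12 with a pseudocount of 0.1 in place of 1 (adjusted p = 0.00165, limma).

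Notch2 (ENSMUSG00000027878, chr3:98013527-98150361, plus strand), the receptor known for its part in bile duct development, was the most abundant receptor in UN and SN cells. Its TPM were 19.7, 19.6 and 22.0 in UN and 7.63, 11.98 and 16.0 in UH cells. They were 22.8, 23.1 and 21.9 in SN and 21.9, 21.6 and 15.0 in SH cells. The UH libraries lay below all UN and SN libraries, whereas SH overlapped each of the other groups. The log2 fold change of −0.79 in UH vs UN passed the p threshold only (adjusted p = 0.0102, limma) and was −1.02 without UH replicate 3. Between SN and UN cells it was 0.14, with a 95% interval from −0.33 to 0.61, and between SH and SN cells −0.22, with an interval from −0.70 to 0.25. Notch4 (ENSMUSG00000015468, chr17:34564268-34588503, plus strand), a receptor largely restricted to ECs, was the least abundant in unsorted cells, from 0.541 to 1.09 TPM. It was 0.360 to 0.620 TPM in SN cells, and the highest value, 3.10 TPM, came from a single SH library beside 0.598 and 1.07 TPM in the others. The groups overlapped in all comparisons of Notch4, and none was called.

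The makeup of the receptor RNA shifted accordingly. Summed TPM of the 4 receptors averaged 38.1 ± 1.12 in UN, 31.2 ± 9.52 in UH, 44.0 ± 0.916 in SN and 49.5 ± 11.05 in SH cells (SD, n = 3 each). Notch3 made up 18.9% ± 2.96 of this sum in UN cells and 44.0% ± 1.497 in UH cells, but 0.156% ± 0.0451 in SN cells and 1.38% ± 0.641 in SH cells (SD, n = 3 each). Notch1 made up 25.6% ± 0.317 and 15.0% ± 1.31 in UN and UH cells and 47.3% ± 0.654 and 55.9% ± 1.22 in SN and SH cells (SD, n = 3 each). Notch2 stayed between 36.2% and 56.5% in the 12 libraries.

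**Figure D2:**
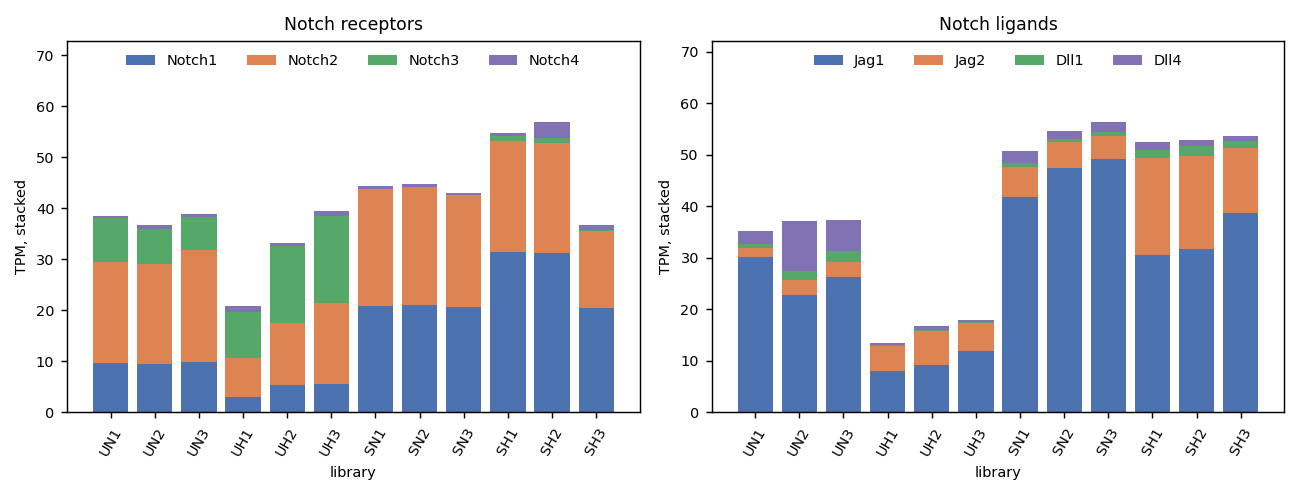
Stacked TPM of the 4 receptors (left) and the 4 ligands (right) in each of the 12 libraries, named by group and replicate. Notch3 contributes 42.8% to 45.7% of receptor TPM in UH libraries and at most 0.205% in SN libraries, and summed ligand TPM are lowest in the UH libraries, at 13.5 to 17.9.

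Among the ligands, Jag1 dominated in every group and Jag2 took a larger share in hypoxia. Jag1 (ENSMUSG00000027276, chr2:137081456-137116644, minus strand), the ligand whose loss is known to disturb bile duct formation, was 30.1, 22.8 and 26.3 TPM in UN cells and 8.06, 9.28 and 11.9 TPM in UH cells. It was 41.8, 47.5 and 49.2 TPM in SN cells and 30.5, 31.7 and 38.7 TPM in SH cells. The groups did not overlap and were ordered SN, SH, UN and UH from high to low, although the lowest SH library, 30.5 TPM, lay just above the highest UN library, 30.1 TPM. Unsorted cells had less Jag1 in hypoxia, with a log2 fold change of −1.36 (SE 0.154, adjusted p = 2.45e-05, limma), and sorted hypoxic cells had more than unsorted hypoxic cells, with a log2 fold change of 1.70 (SE 0.154, adjusted p = 6.25e-06, limma). The smaller differences, −0.45 in SH vs SN (adjusted p = 0.0350, limma) and 0.79 in SN vs UN (adjusted p = 0.00209, limma), did not pass the fold threshold. The responses to hypoxia differed by 0.91 (adjusted p = 0.0127, limma), which was under the fold threshold, and reached 1.005 without UN replicate 2 and 1.05 without UH replicate 3.

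Jag2 (ENSMUSG00000002799, chr12:112907819-112929776, minus strand), the second Jagged ligand, was highest in SH cells. Its TPM were 1.85, 2.97 and 2.92 in UN and 4.87, 6.58 and 5.50 in UH cells. They were 5.77, 4.98 and 4.43 in SN and 18.8, 18.2 and 12.6 in SH cells. The UH and SN libraries overlapped, all UN libraries lay below them and all SH libraries above. Jag2 rose in sorted cells in hypoxia by a log2 fold change of 1.52 (SE 0.196, adjusted p = 9.55e-05, limma). In unsorted cells the log2 fold change was 0.90 (adjusted p = 0.00258, limma), under the fold threshold, and the responses did not differ past the threshold (0.62, 95% interval 0.01 to 1.22, adjusted p = 0.132, limma). From UN to SH cells the log2 fold change was 2.29 (SE 0.196, adjusted p = 2.29e-06, limma). Jag2 made up 35.3% ± 4.28 of summed ligand TPM in UH cells and 31.2% ± 6.83 in SH cells, compared with 7.03% ± 1.55 in UN cells and 9.45% ± 1.78 in SN cells (SD, n = 3 each).

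Both Delta-like ligands fell in unsorted cells in hypoxia, and each was less abundant than Jag1 in every library. They were also below Jag2 in the UH, SN and SH libraries, whereas in UN cells Dll4, at a mean of 6.11 TPM, lay above Jag2, at 2.58 TPM. Dll4 (ENSMUSG00000027314, chr2:119325784-119335962, plus strand), the ligand that restrains sprouting in angiogenic ECs, was 2.61, 9.66 and 6.08 TPM in UN cells and 0.421, 0.689 and 0.411 TPM in UH cells. It was 2.47, 1.38 and 2.01 TPM in SN cells and 1.41, 1.282 and 1.13 TPM in SH cells. Every UN library was above every other library, and every UH library was below, while SN and SH overlapped. Mean TPM were 12.1 times lower in UH than in UN cells, with a log2 fold change of −2.11 (SE 0.311, adjusted p = 0.000176, limma), and −2.53 without UN replicate 1. In sorted cells the log2 fold change with hypoxia was −0.36 (adjusted p = 0.388, limma), and the responses differed by 1.75 (SE 0.440, adjusted p = 0.0163, limma), or 2.17 without UN replicate 1. The lower level of SN than of UN cells, a log2 fold change of −1.15 (adjusted p = 0.0137, limma), was no longer called without UN replicate 2 (−0.79, adjusted p = 0.0507, limma) or without SN replicate 2 (−1.002, adjusted p = 0.0628, limma), and was −1.57 without UN replicate 1 (adjusted p = 0.000201, limma).

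Dll1 (ENSMUSG00000014773, chr17:15367354-15376872, minus strand), a ligand of somite and neural development, was 0.643, 1.66 and 2.06 TPM in UN cells and 0.201, 0.228 and 0.103 TPM in UH cells. It was 0.780, 0.700 and 0.734 TPM in SN cells and 1.65, 1.82 and 1.37 TPM in SH cells. UH libraries were below all others, SH libraries were above all SN libraries, and the wide UN group overlapped both sorted groups. The mean of UN cells was 8.20 times that of UH cells, with a log2 fold change of −1.01 (SE 0.194, adjusted p = 0.00115, limma), and the mean of SH cells was 9.10 times that of UH cells, with a log2 fold change of 1.15 (SE 0.194, adjusted p = 0.000639, limma). The decrease was under the fold threshold without UN replicate 2 (−0.93), UN replicate 3 (−0.83) or UH replicate 3 (−0.97), and was −1.278 without UN replicate 1. The log2 fold change in SH vs SN was 0.58 (adjusted p = 0.0309, limma), so that the responses to hypoxia had opposite signs, and they differed by 1.60 (SE 0.275, adjusted p = 0.00230, limma), or 1.86 without UN replicate 1.

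RefSeq promoter entries (GRCm38.p6) were found for 8 of the 10 genes, with 9 entries in all. The target genes Hes1 and Hey1 had no entry, so only receptors and ligands were searched. The 250 bases before each start were searched on both strands for short motifs. The motifs were TGGGAA, the core of RBPJ sites, and ACGTG and GCGTG, the core letters of hypoxia response elements, which can lie next to or across each other. TGGGAA was found in 0 of the 9 windows and in 21.6% of 32851 promoter windows of all genes. ACGTG was found in 1 window, that of Notch3, and in 16.6% of all, and GCGTG in 8 windows and 28.2% of all. The 9 windows were richer in G and C (56% to 87.2%, median 65.6%) than the median of all, 52.4%. The windows of Notch3, Dll4 and Dll1 are shown because each was called in several comparisons and theirs were the 3 windows that lay wholly outside the annotated gene. They are written 5′ to 3′ on the strand of the gene with matches to ACGTG or GCGTG, or to their reverse complements CACGT and CACGC, in capitals.
Notch3, chr17:32166891-32167140, minus strand: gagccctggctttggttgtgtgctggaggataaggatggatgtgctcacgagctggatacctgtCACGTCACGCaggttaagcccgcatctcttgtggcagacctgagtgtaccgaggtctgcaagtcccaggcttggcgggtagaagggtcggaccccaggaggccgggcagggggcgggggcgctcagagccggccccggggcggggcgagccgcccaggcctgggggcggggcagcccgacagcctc
Dll4, chr2:119325534-119325783, plus strand: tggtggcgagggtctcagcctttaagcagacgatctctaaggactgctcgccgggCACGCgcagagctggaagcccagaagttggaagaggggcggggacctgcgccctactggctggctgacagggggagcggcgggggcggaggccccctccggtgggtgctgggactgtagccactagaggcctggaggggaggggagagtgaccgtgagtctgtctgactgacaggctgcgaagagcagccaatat
Dll1, chr17:15376933-15377182, minus strand: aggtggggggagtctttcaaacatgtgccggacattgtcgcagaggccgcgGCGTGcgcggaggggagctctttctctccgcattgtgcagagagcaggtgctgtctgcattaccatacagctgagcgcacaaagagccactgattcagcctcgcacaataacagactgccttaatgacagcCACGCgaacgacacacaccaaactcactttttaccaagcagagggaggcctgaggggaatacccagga
In the Notch3 window a CACGT at −186 is followed directly by a CACGC at −181, counted from the start site. Dll4 held a CACGC at −195, and Dll1 held a GCGTG at −199 and a CACGC at −68. A match only describes the letters, and binding was not measured.

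The target genes did not move together. Hes1 (ENSMUSG00000022528, chr16:30064384-30067796, plus strand), a repressor that responds quickly to Notch and to other inputs, was 46.3, 114 and 106 TPM in UN cells and 24.3, 24.7 and 23.3 TPM in UH cells. It was 37.9, 31.8 and 226 TPM in SN cells and 34.0, 44.7 and 69.3 TPM in SH cells. UH libraries were below all others, and the other 3 groups overlapped, with a single SN library far above its replicates. Between UH and UN cells Hes1 differed by −1.74 on the log2 scale (SE 0.609, adjusted p = 0.0349, limma), and this call was lost when any library of the 2 groups other than UN replicate 1 was left out (adjusted p from 0.0771 to 0.115, limma). The SE is shared by all groups and includes the outlying SN replicate 3. Without that SN library the same −1.74 had an SE of 0.331 (adjusted p = 0.00178, limma). In SH vs SN the log2 fold change of Hes1 was −0.46 (adjusted p = 0.601, limma) and turned to 0.43 without SN replicate 3 (adjusted p = 0.407, limma). Without that library Hes1 was also called lower in SN than in UN cells (−1.23, adjusted p = 0.0324, limma) and the difference of the responses, 1.281, became 2.17 (adjusted p = 0.0164, limma).

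Hey1 (ENSMUSG00000040289, chr3:8663359-8667256, minus strand), a repressor of the Hey family that is prominent in the vasculature, was 1.23, 5.36 and 5.91 TPM in UN cells and 6.79, 5.55 and 6.68 TPM in UH cells. In SN cells it was 1.83, 1.42 and 2.19 TPM and in SH cells 9.68, 8.38 and 6.19 TPM. All SH libraries were above all SN libraries, whereas UH overlapped with both UN and SH. In sorted cells Hey1 rose in hypoxia by a log2 fold change of 1.68 (SE 0.354, adjusted p = 0.00266, limma), and mean TPM rose 4.46 times. In unsorted cells the log2 fold change was 0.67 (95% interval −0.11 to 1.44, adjusted p = 0.148, limma), or 0.14 without UN replicate 1. Without that library Hey1 was called lower in SN than in UN cells (−1.25 in place of −0.72, adjusted p = 0.000524, limma), and the responses to hypoxia differed by 1.54 in place of 1.02 (adjusted p = 0.00146, limma). The 0.96 from UN to SH cells passed the fold threshold without UN replicate 2 (1.19), UN replicate 3 (1.25) or SH replicate 3 (1.12), and was 0.44 without UN replicate 1 (adjusted p = 0.0791, limma). With a pseudocount of 0.1 this difference was called too (1.19, adjusted p = 0.0458, limma).

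**Figure D3:**
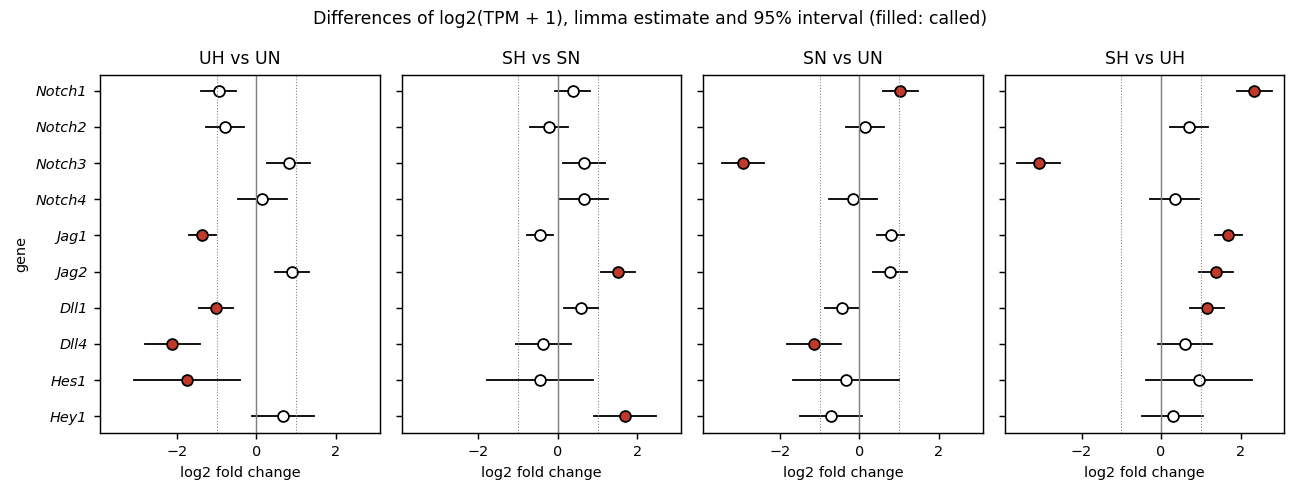
Log2 fold changes of the 10 genes with hypoxia (UH vs UN, SH vs SN) and with sorting (SN vs UN, SH vs UH) (limma estimates on log2(TPM + 1) with 95% intervals, filled where called). Jag1, Dll1, Dll4 and Hes1 lie at −1.01 or lower in UH vs UN, and Notch3 lies at −2.93 and −3.08 in the comparisons of sorted with unsorted cells.

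How libraries are scaled bore on the response of unsorted cells. When each library was instead scaled by its median ratio to the geometric mean of all libraries, the median of all genes in UH vs UN moved from −0.19 to 0, and the share of higher genes among the called moved from 31.7% to 56.2%. Under this scaling 2 of the 10 genes were called higher (Notch3, 1.13, and Jag2, 1.19) and 2 lower (Jag1, −1.03, and Dll4, −1.90), while Dll1 (−0.88) and Hes1 (−1.39) were not called. Of all genes, 8.27% were then called higher and 6.44% lower. Quantile normalization called Notch3, Jag2, Jag1 and Dll4 in UH vs UN too, where 7.64% of all genes were called higher and 7.1% lower. It ended the calls of Dll4 in SN vs UN (−0.80), of Dll1 in SH vs UH (0.98) and of the difference of the Dll4 responses (1.24, adjusted p = 0.0566, limma). The share of higher genes among the called moved from 58.8% to 43.6% in SH vs UH and from 78.8% to 53.5% for the difference of the responses with the first scaling, and from 29.7% to 42.4% in SN vs UN with quantile normalization. Hey1 was also called higher in SH than in UN cells with the first scaling (1.06, adjusted p = 0.0176, limma) and with quantile normalization (1.10, adjusted p = 0.0130, limma). No sign of a called log2 fold change of the 10 genes turned under either scaling. Mitochondrially encoded transcripts took 5.18% to 8.38% of TPM in the normoxic libraries and 1.67% to 4.68% in the hypoxic ones, and without them Notch1 was also called lower in UH vs UN (−1.01).

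Beyond these 10 genes, 54 others of the pathway were listed by role, and 51 of them were tested. With hypoxia, 2 (3.92%) were called higher and 4 (7.84%) lower in unsorted cells, both below the 5.46% and 11.8% of all genes. In sorted cells 4 (7.84%) were higher and 5 (9.8%) lower, compared with 7.47% and 5% of all genes. With sorting, 3 (5.88%) were called higher and 6 (11.8%) lower in normoxia, compared with 3.2% and 7.57%, and 1 (1.96%) higher with 3 (5.88%) lower in hypoxia, compared with 7.65% and 5.35%. From UN to SH cells, 2 (3.92%) were higher and 7 (13.7%) lower, compared with 8.97% and 11.3%. Differences of a few genes from these shares were not tested. The median log2 fold change of the 51 genes was −0.25 with hypoxia in unsorted and −0.04 in sorted cells.

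Of the other target genes, Hey2, a relative of Hey1, rose with hypoxia in both kinds of cells. It was 0.0813, 0.0297 and 0.0288 TPM in UN cells and 2.11, 2.82 and 2.94 TPM in UH cells, and 0.175, 0.108 and 0.0695 TPM in SN cells and 1.90, 1.52 and 1.62 TPM in SH cells. The hypoxic libraries were above all normoxic ones, and the log2 fold changes were 1.78 (SE 0.123, adjusted p = 6.38e-07, limma) and 1.26 (SE 0.123, adjusted p = 1.32e-05, limma). Nrarp, a target that in turn dampens Notch signaling, was 6.40, 7.38 and 6.07 TPM in SN cells and at most 1.77 TPM in any other library. It was higher in SN than in UN cells by a log2 fold change of 1.89 (adjusted p = 6.26e-06, limma) and lower in SH than in SN cells, with −1.67 (adjusted p = 1.44e-05, limma). Hes2, Hes5 and Heyl were under the expression filter, at group means of at most 0.174 TPM.

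Among proteins that act on ligands and receptors, Lfng, a glycosyltransferase that changes which ligands a receptor answers to, fell in hypoxia in both kinds of cells. Its TPM were 15.3, 29.1 and 25.8 in UN, 6.46, 6.50 and 5.38 in UH, 29.2, 24.7 and 20.6 in SN and 5.203, 6.21 and 7.99 in SH cells, with log2 fold changes of −1.74 (adjusted p = 7.18e-05, limma) and −1.79 (adjusted p = 8.29e-05, limma). Its relative Rfng differed by sorting in normoxia, with −1.12 in SN vs UN (adjusted p = 0.000804, limma), and Pofut1, which adds the fucose that Fringe enzymes extend, was lower in SH than in UN cells (−1.08, adjusted p = 4.25e-05, limma). The ubiquitin ligases of ligand endocytosis were mixed. Neurl1b rose in SN vs UN by 1.56 (adjusted p = 1.27e-05, limma) and fell in SH vs SN (−1.75, adjusted p = 4.84e-06, limma), whereas Neurl1a rose with hypoxia by 1.12 in unsorted cells (adjusted p = 8.47e-05, limma) and 1.27 in sorted cells (adjusted p = 5.25e-05, limma).

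The noncanonical ligand Dlk1, also a hepatoblast marker, had nearly vanished from sorted cells, with the group means given above. The log2 fold change was −5.06 in SN vs UN (SE 0.524, adjusted p = 2.47e-05, limma), and UN replicate 1 had 13.5 TPM, against 83.8 and 78.7 TPM in its group. Dlk2 rose in SH vs SN by 1.72 (adjusted p = 5.13e-05, limma). Of 10 protease genes, 2 subunits of γ-secretase, Aph1b (−1.09, adjusted p = 0.00319, limma) and Aph1c (−1.35, adjusted p = 0.000377, limma), were lower in SN than in UN cells; their sequences are closely alike and reads may have been divided between them. Numbl, listed as an inhibitor, was lower in sorted cells in normoxia (−1.56, adjusted p = 0.000244, limma) and hypoxia (−1.25, adjusted p = 0.000830, limma). The Deltex gene Dtx4, placed in the same list, fell in SH vs SN (−1.14, adjusted p = 8.02e-05, limma). Whether it restrains or aids Notch signaling in these cells was not tested. Rbpj itself was not called in any comparison, and its TPM ranged from 29.1 to 37.1 in the normoxic libraries, from 56.1 to 85.1 in UH and from 35.2 to 49.2 in SH libraries.

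In the nuclear complex the corepressor gene Tle1 was lower in sorted cells (−1.65 in normoxia, adjusted p = 0.000534, and −1.08 in hypoxia, adjusted p = 0.00609, limma), whereas Spen was higher in SN than in UN cells (1.58, adjusted p = 0.00261, limma). The acetyltransferase gene Kat2a fell in UH vs UN (−1.495, adjusted p = 1.63e-05, limma).

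**Figure D4:**
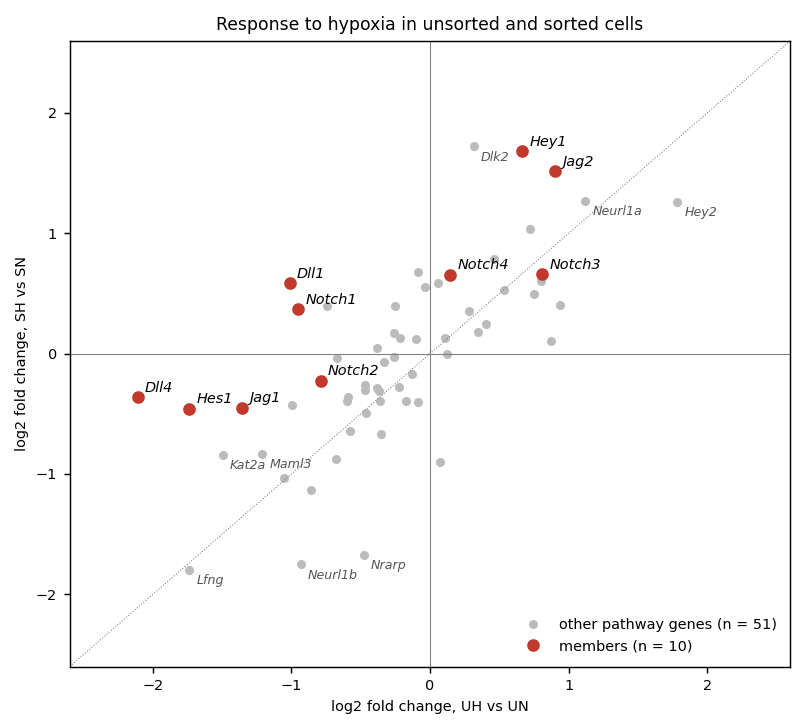
Log2 fold change with hypoxia in unsorted cells (UH vs UN, horizontal) and in sorted cells (SH vs SN, vertical) for the 10 Notch genes and 51 other pathway genes, with a dotted line where the responses are equal. Notch1 and Dll1 lie left of 0 and above it, at −0.95 and 0.37 and at −1.01 and 0.58, and Lfng lies near the line at −1.74 and −1.79.

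Markers of other cell types moved with the same comparisons, and members of a list often moved in different directions. The 7 fibroblast markers summed to 985 to 4240 TPM in UN and 4535 to 6790 TPM in UH cells, but to 124 to 138 TPM in SN and 35.0 to 59.2 TPM in SH cells. Of the 6 that were tested, 4 were lower in SN than in UN cells and 4 in SH than in UH cells, and Col1a1, Col1a2, Col3a1 and Pdgfra had log2 fold changes from −5.72 to −7.62 in SN vs UN. Dcn, a proteoglycan of fibroblasts, made up most of what was left in SN cells, with means of 172 TPM in UN and 119 TPM in SN cells. The SN libraries, at 116 to 126 TPM, lay within the wide range of the UN libraries, 81.3 to 349 TPM.

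The 9 mural markers summed to 215 to 1028 TPM in UN, 407 to 454 TPM in UH, 75.2 to 80.1 TPM in SN and 18.8 to 24.4 TPM in SH cells, and 2 of the 6 tested were lower in SN than in UN cells with 0 higher. These were the contractile genes Acta2 (−3.205) and Tagln (−3.67). Pdgfrb, a receptor gene listed here as a mural marker, did not follow Notch3 in its group means. Its means were 44.7 TPM in UN, 15.2 TPM in UH, 43.8 TPM in SN and 6.08 TPM in SH cells. The UN libraries ranged widely, from 28.4 to 74.6 TPM, around the SN libraries at 40.3 to 47.7 TPM. In the fit with all UN libraries, Pdgfrb differed by 0.11 in SN vs UN (adjusted p = 0.829, limma). It was lower with hypoxia in unsorted (−1.37, adjusted p = 0.00205, limma) and sorted cells (−2.66, adjusted p = 2.73e-05, limma). Des, a muscle intermediate filament, was higher in SH than in SN cells (2.01, adjusted p = 3.54e-05, limma), at a mean of 8.89 TPM, whereas Rgs5 and Myh11 had group means of at most 0.241 and 0.332 TPM. The part of such cells in the values of Notch3 was not tested.

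The 15 EC markers summed to 50.5 to 57.3 TPM in UN, 84.3 to 123 TPM in UH, 75.3 to 85.7 TPM in SN and 93.2 to 120 TPM in SH cells, and most of each sum was Efnb2, with group means from 38.7 to 93.3 TPM. Of the 8 tested, 2 were called higher and 0 lower with hypoxia in unsorted cells. In sorted cells the counts were also 2 and 0. Flt1 was called in both kinds of cells, Gja4 only in unsorted and Esam only in sorted cells. Flt1, a VEGF receptor, rose from a mean of 2.52 TPM in UN to 22.96 TPM in UH cells (log2 fold change 2.78, adjusted p = 1.31e-06, limma), and the connexin gene Gja4 from 0.138 to 3.40 TPM (1.96, adjusted p = 1.28e-07, limma). In sorted cells Gja4 did not rise, with means of 0.0812 TPM in SN and 0.0394 TPM in SH cells. Mean Flt1 was 1.33 TPM in SN and 3.86 TPM in SH cells, and mean Esam 2.09 and 7.24 TPM. Esam, an adhesion molecule, was 2.15 higher in SH than in UH cells (adjusted p = 1.39e-05, limma), and Egfl7 was lower in SN than in UN cells (−1.97, adjusted p = 1.29e-05, limma). The junction genes Cdh5 and Pecam1 had group means of at most 0.0817 and 0.359 TPM.

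The 7 biliary markers reached 2844 to 3252 TPM in UN, 1182 to 1233 TPM in UH, 4293 to 4876 TPM in SN and 1017 to 1178 TPM in SH cells, with Spp1 at means of 2832 TPM in UN, 641 TPM in UH, 4485 TPM in SN and 930 TPM in SH cells. Krt19, a keratin of bile ducts, went against this sum, with means of 62.0 TPM in UN, 481 TPM in UH, 0.837 TPM in SN and 4.87 TPM in SH cells. It was higher in UH than in UN cells (3.06, adjusted p = 1.55e-05, limma) and lower with sorting in normoxia (−5.00, adjusted p = 6.06e-07, limma) and hypoxia (−6.37, adjusted p = 7.84e-08, limma). Krt7, another bile duct keratin, was higher with sorting in normoxia (1.12, adjusted p = 0.00270, limma) and hypoxia (1.89, adjusted p = 5.27e-05, limma).

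The 9 hepatocyte and hepatoblast markers summed to 27.5 to 113 TPM in UN, 90.6 to 105 TPM in UH, 24.6 to 28.0 TPM in SN and 22.0 to 31.3 TPM in SH cells, and Dlk1 made up most of the mean sum in UN and UH cells. Hnf4a (−1.86, adjusted p = 0.000168, limma) and Gpc3 (−1.82, adjusted p = 0.000318, limma) were also lower in SN than in UN cells, whereas Afp was higher with sorting in normoxia (1.86, adjusted p = 7.74e-05, limma) and hypoxia (1.40, adjusted p = 0.000414, limma). The 6 leukocyte markers summed to 4.51 to 8.11 TPM in UN, 20.4 to 21.5 TPM in UH, 9.50 to 13.9 TPM in SN and 58.9 to 61.9 TPM in SH cells. Most of the sum in hypoxic cells was Cd68, a lysosomal protein abundant in macrophages, which rose with hypoxia in unsorted (1.83, adjusted p = 7.36e-06, limma) and sorted cells (2.66, adjusted p = 8.60e-07, limma), and the pan-leukocyte gene Ptprc had group means of at most 0.0718 TPM.

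The genes whose log2(TPM + 1) followed the 3 most variable members most closely over the 12 libraries were also listed, among 13566 genes with a mean of at least 1 TPM. Notch3 was most like Col1a1 (Pearson's r = 0.992), Npas2 (r = 0.992) and Apba1 (r = 0.990). Notch1 was most like Pitpnm2 (r = 0.986), Aagab (r = 0.984) and Gtf3c1 (r = 0.982), and Jag2 was most like Smim3 (r = 0.983), Zfp777 (r = 0.982) and Pde2a (r = 0.980). The 12 libraries form 4 groups, which these coefficients largely follow, and they are given as a description.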

How the data were processed

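RNA-seq had been performed on 12 libraries of BN1-Tie2-EGFP cells (stranded mRNA libraries, paired-end reads), and groups were taken from the labels. The authors processed the reads with nf-core/rnaseq 3.12.0, naming the mm10 build in their processing notes, and deposited gene TPM, corrected for transcript length and scaled to the same sum in each library; whether the annotation was GENCODE is not given in the sources used here. Read depth cannot be recovered from these TPM, so no counting error is given. Coordinates are from GENCODE M21 (GRCm38) and promoters from RefSeq (GRCm38.p6).

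Genes were kept where mean TPM reached 0.1, and log2(TPM + 1) was fitted in limma 3.58.1 (R 4.3.3) with a mean per group, an empirical Bayes trend and Benjamini-Hochberg adjustment over 18909 genes in each of 6 contrasts. Scripts were tested on simulated data. Exact two-sided permutation tests over 3 against 3 libraries cannot go below p = 0.1, and each pair of groups said not to overlap had that value. Figures were drawn with matplotlib 3.10.9 in Python 3.11.15.

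The members and lists were chosen with earlier results of these data known. The named genes were the 10 members, up to 4 called genes per pathway role by size of change (and such context markers), and the 3 genes most like each of the 3 most variable members. A gene that the rule names is not reported here. Rbpj, Hes2, Hes5, Heyl and the markers Alb, Apoe, Dcn, Rgs5, Myh11, Efnb2, Cdh5, Pecam1, Cd68 and Ptprc were added after their values were seen. Alternatives were a pseudocount of 0.1, no filter or a filter at 1 TPM, 2 other scalings, leaving out mitochondrial genes, no trend, no fold threshold, a replicate block, only the groups compared, and leaving out each library.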

Additional observations from a re-analysis of the deposited data

Results flagged for a closer look

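The response of Notch1 to hypoxia differed between sorted and unsorted cells by 1.32 on the log2 scale, with an adjusted p past the threshold of the test of that difference (limma). The difference was 1.60 for Dll1 and 1.75 for Dll4 in the same test. In each case the log2 fold change was more negative in unsorted cells. Groups of 3 libraries were not tested for single libraries that stand apart.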

How the results depend on the processing

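With other settings, 492 of 518 values kept their direction and side of the threshold, 9 lost their call, 13 gained one and 4 reversed. Among 420 values with a library left out, these were 389, 10, 13 and 8. The filter at 1 TPM removed Dll1 and Notch4, so their values under it are not among the 518. With it, 4 genes were called in SH vs UH, where 1309 of 13567 genes were called higher and 930 lower. For the difference of the responses 2 were called, where 1337 of all genes were called higher and 387 lower. The number of the 10 genes called was 8 in UH vs UN, 5 in SH vs SN and 5 in SN vs UN with no fold threshold. A looser rule lets more of all genes pass too, and as that share is not given here, these counts do not set the 10 genes apart. With a pseudocount of 0.1 the number was 4 in SH vs SN, where 15.1% of all genes were called higher and 6.73% lower. Leaving out a library gave 2 to 4 called genes in UH vs UN, with the lowest count without UN replicate 2 or 3, 2 in SH vs SN, 2 to 4 in SN vs UN, 5 in SH vs UH, 4 to 5 in SH vs UN and 3 to 4 for the difference of the responses. Among all 18909 genes tested, 1032 were called higher and 2222 lower in UH vs UN with all libraries. These were 989 and 2059 without UN replicate 2, and 1009 and 2089 without UN replicate 3. Without UN replicate 1, 4 genes were called in SN vs UN, beside 3.92% of all genes called higher and 9.06% lower (3.2% and 7.57% with all libraries). The difference of the responses also had 4, beside 11.2% and 3.36% (8.08% and 2.18% with all libraries). Without SN replicate 3 both had 4 again, beside 3.1% and 7.53%, and 7.47% and 1.98%. Shares for other left-out libraries are not given, so those counts do not set the 10 genes apart.

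None of the values that reversed was called. They were 0.089 for Notch4 in SN vs UN with quantile normalization, 0.044 and 0.086 for Notch2 in SH vs UN with median-of-ratios scaling and quantile normalization, and 1.24 for the difference of the Notch3 responses with a pseudocount of 0.1. With a library left out, log2 fold changes ranged from −0.96 to 0.43 for Hes1 in SH vs SN, −1.23 to 0.17 for Hes1 in SN vs UN, −0.046 to 0.633 for Notch4 in SH vs UH, −0.173 to 0.088 for Notch2 in SH vs UN, −0.13 to 0.32 for Dll1 in SH vs UN and −0.400 to 0.078 for the difference of the Notch3 responses. Fitting only the groups compared ended the call of Dll4 in SN vs UN (adjusted p = 0.0877, limma), and no filter on low values that of Hes1 in UH vs UN (adjusted p = 0.0697, limma). The cause of these changes was not tested.

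With a replicate block, the numbers of called genes were 4 in UH vs UN, 2 in SH vs SN, 3 in SN vs UN, 5 in SH vs UH, 4 in SH vs UN and 3 for the difference of the responses, and they were the same genes. The shares of all genes called higher and lower were 5.46% and 11.8%, 7.46% and 5.01%, and 3.2% and 7.55% in the first 3 of these. In the last 3 they were 7.71% and 5.34%, 8.97% and 11.4%, and 8.05% and 2.12%. Same-numbered libraries had residual correlations from −0.116 to 0.141 in 18 pairs, so the numbers were not treated as pairs. Depth could not be read from TPM, and levels under 1 TPM, as in Notch3 of SN cells, may rest on few reads.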
